A study of Glycine max with 6 samples.

Results

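VSPA and VSPB are the genes of the soybean vegetative storage proteins, and they are described here across 6 leaf libraries of the genotypes HN44 and SN14. They were taken by their NCBI gene numbers, VSPA (synonym VSP25) as gene 547821 and VSPB (synonym VSP27, listed by RefSeq as LOC547820) as gene 547820, and are 2 of the 41759 genes in the authors' table. VSPA lies on chromosome 7 (1145053 to 1146546, plus strand) and VSPB on chromosome 8 (16182330 to 16184252, plus strand), as the table gives the positions, without naming a genome build. Leaves of field-grown soybean (Glycine max), HN44 in 3 libraries and SN14 in 3, were sequenced in a study that set genotypes of unequal water use efficiency side by side. Neither the more efficient genotype is named in the labels, nor the age of the plants, nor the number of plants behind each library. Both genes were chosen because they differed between these genotypes, so their levels are given as a description, with no test.

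Vegetative storage proteins are glycoproteins that soybean stores in the vacuoles of leaf cells, above all in the paraveinal mesophyll and around the veins, and breaks down again when nitrogen is needed elsewhere. They belong to a superfamily of acid phosphatases and pair up as homodimers and heterodimers of the alpha and beta subunits that VSPA and VSPB encode. In soybean their transcripts are known to be raised by jasmonate, wounding, sugars, removal of pods and mild water deficit, and lowered by phosphate. A larger leaf protein that accumulates beside them, VSP94, is a lipoxygenase.

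Expression was given as FPKM, which scales the fragments of a gene by its length and by the size of the library, so levels of different genes can be set side by side. Each library had values above 0 for 37244 to 37939 genes. The library HN44-3 stood apart: among genes averaging 5 FPKM or more, 1992 were over 2-fold apart in HN44-1 and HN44-2, and 1978 of these had an HN44-3 value between the other 2, or 99.3%, where the same share for each SN14 library lay between 42.6% and 67.9%. Weights of 0.57 on HN44-1 and 0.43 on HN44-2, chosen as the best fit over 15804 genes at that mean level, gave 24.8 FPKM for VSPA and 0.328 FPKM for VSPB, against deposited HN44-3 values of 25.26 and 0.32. HN44-3 therefore adds little as a replicate, and results are also given without it. The leaf label was checked on 13 photosynthesis genes, of which RBCS1, for the Rubisco small subunit, stood at 14284.34 to 29373.15 FPKM in HN44 and 35455.42 to 37596.59 FPKM in SN14. The summed level of the 13 was 57954.83, 77247.38 and 65420.52 FPKM in HN44 libraries 1, 2 and 3, against 93085.81, 93915.35 and 79347.7 FPKM in SN14 libraries 1, 2 and 3, and so moved with VSPA and VSPB; its part in their difference was not tested. In limma none of the 13 passed between the genotypes, with 5 at an unadjusted p under 0.05, a level that 7419 of the 27140 tested genes, or 27.3%, were under. Among the 13, the light-harvesting protein gene LOC547819 stood at 12.1, 155.43 and 71.7 FPKM in HN44 libraries 1, 2 and 3, against 1298.12, 255.68 and 507.28 FPKM in SN14 libraries 1, 2 and 3, and the Rubisco activase gene RCABETA stood higher in HN44, at 7871.94 to 9876.8 FPKM, than in SN14, at 4120.54 to 6897.66 FPKM. The single seed storage gene in the table, GY3, was at most 0.07 FPKM. The 10 nodule genes summed to 27.19 to 30.56 FPKM in HN44 and 19.73 to 21.26 FPKM in SN14, most of it from the uricase gene UR2, at 15.24 to 25.1 FPKM in HN44 and 11.86 to 15.23 FPKM in SN14; NOD33 and N-36A were at most 8.23 and 2.4 FPKM, and the nodulin genes N-26 and N6L were at 0 in 5 of 6 libraries each.

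VSPA, for the alpha subunit, was one of the abundant leaf transcripts of SN14 and stood lower in HN44. It stood at 1.87, 55.25 and 25.26 FPKM in HN44 libraries 1, 2 and 3, against 1240.33, 1944.99 and 294.88 FPKM in SN14 libraries 1, 2 and 3. Every HN44 library lay below every SN14 library, the closest pair being HN44-2 and SN14-3, where VSPA was 5.34-fold lower in HN44-2, and the farthest HN44-1 and SN14-2, where it was 1040.1-fold lower in HN44-1. By level, VSPA was gene number 23503, 1917 and 4388 in HN44 libraries 1, 2 and 3, and number 89, 35 and 310 in SN14 libraries 1, 2 and 3. In SN14-2 VSPA alone took 0.223% of the FPKM total. The difference of HN44 from SN14 in mean log2(FPKM + 1) was -5.79, with an SD over libraries of 2.23 in HN44 and 1.42 in SN14 (n = 3 each). Without HN44-3 it was -6.14, with an HN44 SD of 3.04 (n = 2).

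VSPB, for the beta subunit, was low in both genotypes beside VSPA and lay near 0 in HN44. Its levels were 0.07, 0.67 and 0.32 FPKM in HN44 libraries 1, 2 and 3, against 28.59, 82.95 and 26.41 FPKM in SN14 libraries 1, 2 and 3. The groups again did not overlap, and the closest libraries, HN44-2 and SN14-3, still lay 39.4-fold apart. VSPB was gene number 28012 to 35197 by level in HN44 and number 1270 to 3887 in SN14. The difference of HN44 from SN14 in mean log2(FPKM + 1) was -4.94 (SD of 0.32 in HN44 and 0.90 in SN14, n = 3 each). Without HN44-3 it was -4.93, with an HN44 SD of 0.45 (n = 2). Because 1 is added before the log, this figure understates the fold of a gene that stands below 1 FPKM in HN44: with 0.1 added the difference was -6.71. VSPB passed the filter for testing, at least 1 FPKM in at least 3 libraries, through its SN14 values alone.

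For reference, HN44 and SN14 did not overlap in 33.9% of the 27140 tested genes, and 10.5% were lower in HN44 without overlap. That share is printed beside the 2 members because they were chosen on this contrast, and nothing is read from it. Tested genes with a lower difference than VSPA numbered 2, and 5 had a lower one than VSPB. Over all tested genes the median difference was 0.17, and 0.00 once libraries were scaled by their median ratio, a shift far smaller than either member's difference.

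**Figure D1:**
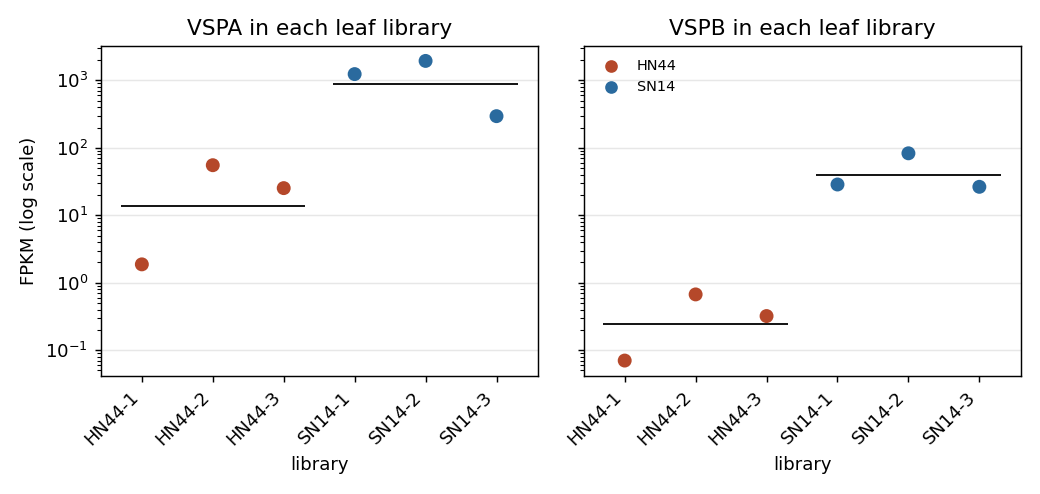
FPKM of VSPA (left) and VSPB (right) on a log axis in each of the 6 libraries, HN44 in red and SN14 in blue; each horizontal line is the geometric mean of 3 libraries. The HN44 libraries lie at 1.87 to 55.25 FPKM for VSPA and 0.07 to 0.67 FPKM for VSPB, below the SN14 libraries at 294.88 to 1944.99 and 26.41 to 82.95 FPKM.

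Within a genotype, VSPA was among the most variable transcripts of the leaf. HN44-2 held 29.5-fold more VSPA than HN44-1, a difference of 4.29 in log2(FPKM + 1) that only 30 of the 27140 tested genes exceeded between these libraries; the median gene differed by 0.36. Among the SN14 libraries VSPA spanned 6.6-fold, from SN14-3 to SN14-2, or 2.72 on the log2 scale, where the median gene spanned 0.55 and 453 genes spanned more. VSPB spanned 9.57-fold between HN44-1 and HN44-2, but at levels under 1 FPKM, where the log2 difference after adding 1 was only 0.64 and 6235 genes differed more. Among the SN14 libraries VSPB spanned 3.14-fold. The number of reads behind these values is unknown, so counting error at 0.07 FPKM could not be set beside the spread.

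Both genes had the same order of HN44 libraries, lowest in HN44-1 and highest in HN44-2, and both were highest in SN14-2 and lowest in SN14-3. They parted in how SN14-1 and SN14-3 compared. VSPA was 4.21-fold higher in SN14-1 than in SN14-3, whereas VSPB was 1.08-fold higher. As HN44-3 adds little, the order within HN44 rests on HN44-1 and HN44-2 alone.

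The ratio of VSPA to VSPB, taken within a library so that library scale cancels, was far from constant. It was 26.7, 82.5 and 78.9 in HN44 libraries 1, 2 and 3, against 43.4, 23.4 and 11.2 in SN14 libraries 1, 2 and 3. HN44-1 lay among the SN14 libraries, and HN44-2 and HN44-3 lay above all of them. Since FPKM was deposited to 2 decimals, the HN44-1 ratio can lie anywhere from 24.9 to 28.8, which stays below SN14-1 and above SN14-2. The mean log2 ratio was 5.80 ± 0.92 in HN44 and 4.49 ± 0.98 in SN14 (SD, n = 3 each), a difference of 1.31. Without HN44-3 the difference was 1.06, smaller than the HN44 SD of 1.15 (n = 2), and without SN14-3 it was 0.81. VSPA was the larger of the pair in every library, and VSPB made up between 1.2% and 8.22% of their summed FPKM. The genes encode similar proteins, and reads that match both may have been divided between them by the authors' counting; how this bears on VSPB and on the ratio was not tested.

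**Figure D2:**
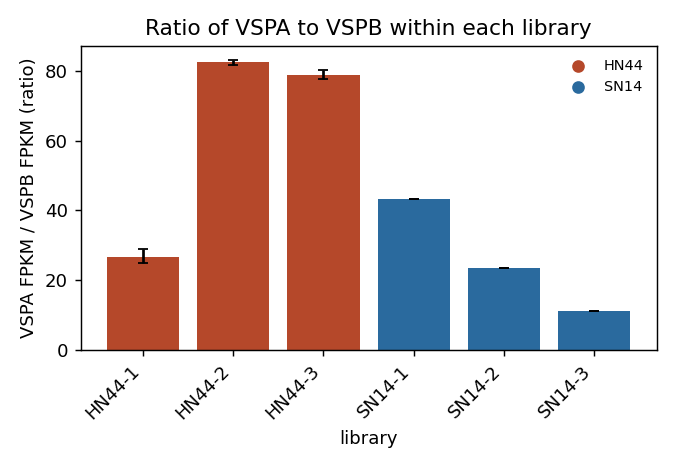
Ratio of VSPA to VSPB FPKM in each library, HN44 in red and SN14 in blue; error bars give the range that rounding of the deposited values to 2 decimals allows. The ratio is highest in HN44-2 at 82.5 and lowest in SN14-3 at 11.2, and HN44-1 at 26.7 lies between SN14-2 and SN14-1.

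The gene of the third storage protein, LOXB1 (synonym VSP94), did not share the low level of VSPA and VSPB in HN44. It stood at 122.43, 83.37 and 105.08 FPKM in HN44 libraries 1, 2 and 3, against 139.39, 137.96 and 113.91 FPKM in SN14 libraries 1, 2 and 3. As deposited the groups overlapped, through HN44-1 and SN14-3 alone. With libraries scaled by median ratios (factors of 1.168 for HN44-1 and 0.8923 for SN14-3) they did not, HN44 being lower. For reference, 10.5% of all tested genes were lower in HN44 without overlap as deposited. The LOXB1 log2 difference was -0.34 ± 0.20 (SE), with an adjusted p of 0.3 in limma, a linear model fitted here to all 27140 tested genes with Benjamini-Hochberg adjustment. In HN44 the order of libraries for LOXB1 was the reverse of that of VSPA, highest in HN44-1 and lowest in HN44-2. As HN44-3 adds little, that order rests on HN44-1 and HN44-2 alone.

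Lipoxygenases oxidise polyunsaturated fatty acids, and some of them start the synthesis of jasmonate. Of 9 lipoxygenase genes found, 7 were tested; none rose and none fell in limma at an adjusted p of 0.05, and 3 had an unadjusted p under it, beside 27.3% of all tested genes. Over all tested genes 3.78% passed, 2.33% higher and 1.44% lower in HN44, and without HN44-3 these shares were 0.553%, 0.387% and 0.166%. The median log2 difference of the 7 was 1.00, beside 0.17 over all tested genes. The vegetative lipoxygenase gene VLXB, the most abundant, stood at 271.69, 204.77 and 241.43 FPKM in HN44 libraries 1, 2 and 3, against 406.26, 357.26 and 213.01 FPKM in SN14 libraries 1, 2 and 3. The vegetative lipoxygenase gene VLXC stood at 124.62, 103.99 and 114.26 FPKM in HN44 libraries 1, 2 and 3, against 68.06, 44.76 and 22.68 FPKM in SN14 libraries 1, 2 and 3. VLXC was higher in every HN44 library than in any SN14 library, the opposite of VSPA. Of all tested genes 33.9% did not overlap, counting both directions. The VLXC difference was 1.45 ± 0.37 (SE) on the log2 scale, with a limma adjusted p of 0.078 that was 0.289 without HN44-3. LOX9 stood at 140.12, 66.23 and 111.28 FPKM in HN44 libraries 1, 2 and 3, against 36.26, 65.24 and 22.98 FPKM in SN14 libraries 1, 2 and 3 (limma adjusted p = 0.106). LOX10 was low throughout, at 1.6 to 3.74 FPKM in HN44 and 0.16 to 1.95 FPKM in SN14.

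The jasmonate genes, for the enzymes allene oxide synthase (AOS) and allene oxide cyclase (AOC), the receptor COI1 and the repressor JAZ1, were mostly not lower in HN44. Of 10 found, 8 were tested, and none passed in limma, with 2 of the 8 at an unadjusted p under 0.05, beside 27.3% of all tested genes. The median log2 difference was 0.92, and 0.61 without HN44-3, beside 0.17 and 0.16 over all tested genes. By their means 7 of the 8 were higher in HN44, also once libraries were scaled by their median ratio. As deposited, 36.0% of all tested genes were lower in HN44. For AOC4, AOC3 and JAZ1 the HN44-1 value lay below every SN14 value. Their higher means thus rest on HN44-2, as HN44-3 adds little as a replicate. AOS2 came closest, at 9.87, 14.71 and 10.32 FPKM in HN44 libraries 1, 2 and 3, against 2.65, 6.3 and 2.88 FPKM in SN14 libraries 1, 2 and 3. Every HN44 library lay above every SN14 library for AOS2, beside 33.9% of all tested genes without overlap in either direction. The AOS2 log2 difference was 1.41 ± 0.31 (SE), with a limma adjusted p of 0.0578, or 0.23 without HN44-3. AOC6 was the exception in direction, at 1.23, 6.87 and 3.56 FPKM in HN44 libraries 1, 2 and 3, against 9.37, 9.06 and 3.58 FPKM in SN14 libraries 1, 2 and 3. Its groups overlapped, with a log2 difference of -0.86 ± 0.52 (SE) and a limma adjusted p of 0.311, and like VSPA it was lowest in HN44-1 among the HN44 libraries and in SN14-3 among those of SN14.

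Of the 8 jasmonate genes, 5 shared the order of VSPA among the HN44 libraries, lowest in HN44-1 and highest in HN44-2, as did 23.0% of all tested genes and 0 of the 7 lipoxygenases. They were AOS2, AOC6, AOC4, AOC3 and JAZ1. As HN44-3 adds little, the shared order rests on HN44-1 and HN44-2 alone. HN44-3 lay between them for 99.3% of genes over 2-fold apart, among those averaging 5 FPKM or more. The 23.0% includes genes that differ less, so nothing is read from the 5 of 8 beside it. AOC4 stood at 1.57, 81.94 and 36.14 FPKM in HN44 libraries 1, 2 and 3, against 8.8, 6.01 and 13.56 FPKM in SN14 libraries 1, 2 and 3. Its HN44-1 and HN44-2 values were 52.2-fold apart, and only 8 tested genes differed by more on the log2 scale. AOC3 stood at 6.7, 60.01 and 29.51 FPKM in HN44 libraries 1, 2 and 3, and at 10.63, 12.13 and 15.48 FPKM in SN14 libraries 1, 2 and 3. JAZ1 (LOC100778559), a repressor of jasmonate responses whose family is itself induced by the hormone, stood at 16.36, 167.78 and 77.8 FPKM in HN44 libraries 1, 2 and 3, against 20.89, 16.76 and 50.5 FPKM in SN14 libraries 1, 2 and 3. In SN14-2, where VSPA had its highest value of all, AOS2, AOC4, AOC3 and JAZ1 were lower than in HN44-2, while AOC6 was higher. AOC4, AOC3 and JAZ1 were picked out after their values were seen. AOC2 (LOC100800036), by contrast, was highest in HN44-1, at 16.76 FPKM against 6.76 in HN44-2.

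**Figure D3:**
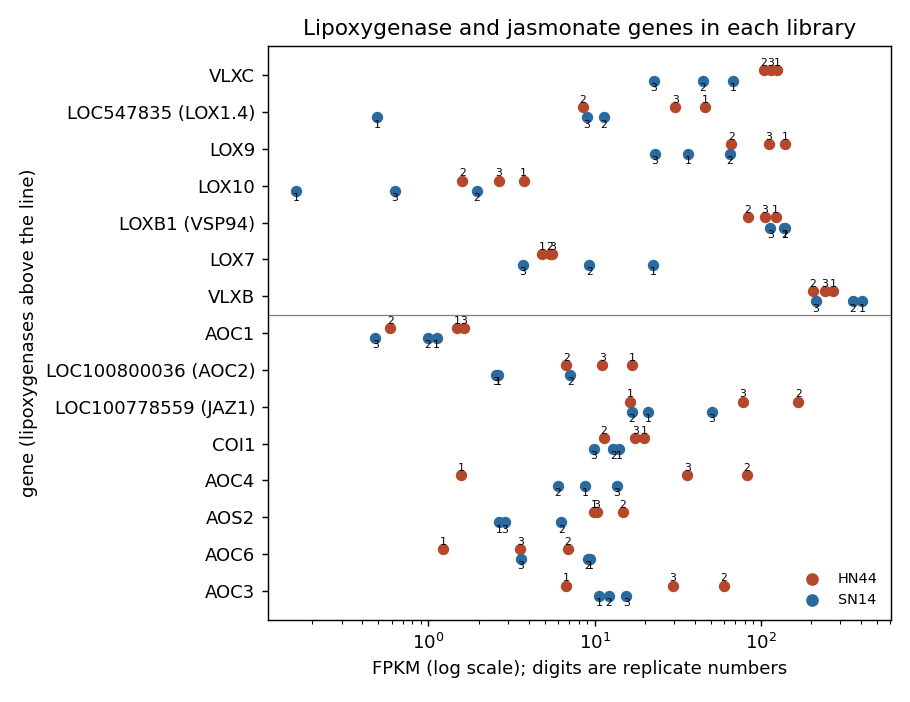
FPKM on a log axis of the 7 tested lipoxygenase genes (above the line) and the 8 tested jasmonate genes (below it), with HN44 libraries in red and SN14 libraries in blue and the replicate number beside each point. LOXB1 (VSP94) shows overlapping groups at 83.37 to 139.39 FPKM, and AOC4, AOC3 and JAZ1 have their lowest HN44 value in HN44-1 and their highest in HN44-2.

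Other genes tied to what the storage proteins hold or respond to were counted in the same fit. In that fit 3.78% of all tested genes passed, 2.33% higher and 1.44% lower in HN44. In the list of nitrogen transport and assimilation 1 of 18 tested genes rose, 1 fell and 16 did not pass, with a median log2 difference of 0.57. The gene that fell was the ammonium transporter AMT1.5 (limma adjusted p = 0.00116, and 0.0121 without HN44-3). In HN44 libraries 1, 2 and 3 it stood at 0.67, 0.16 and 0.22 FPKM. In SN14 libraries 1, 2 and 3 it stood at 32.55, 61.4 and 24 FPKM. Like VSPB, AMT1.5 passed the filter for testing through its SN14 values alone. The gene that rose was its relative AMT1.3, at 109.16 to 147.48 FPKM in HN44 and 44.33 to 75.92 FPKM in SN14 (limma adjusted p = 0.0474, and 0.236 without HN44-3). A further gene model, AMT1.4, spans both AMT1.3 and AMT1.5 on the same strand of chromosome 10 (40202640 to 40242737). AMT1.4 stood at 53.93 to 248.21 FPKM in HN44 and 21.01 to 98.97 FPKM in SN14. How reads were divided among these overlapping models was not tested. INR2, for a nitrate reductase, stood at 548.25 to 929.28 FPKM in HN44 and 329.14 to 506.99 FPKM in SN14 and did not pass (limma adjusted p = 0.104).

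In the list of phosphate transport and acid phosphatases 1 of 58 rose, 1 fell and 56 did not pass, with a median of -0.06. The share that passed was near the 3.78% of all tested genes, and nothing is read from it about the list. PHR8, named for the regulators of the phosphate starvation response, rose, at 4.55 to 7.46 FPKM in HN44 and 0.78 to 1.73 FPKM in SN14. The purple acid phosphatase gene PAP14 fell, at 0.08 to 0.13 FPKM in HN44 and 1.33 to 1.72 FPKM in SN14. It too passed the filter for testing through its SN14 values alone. PHR25 stood at 23.41 to 28.37 FPKM in HN44 and 50.41 to 179.91 FPKM in SN14 (limma adjusted p = 0.0606). Without HN44-3 no gene of this list passed.

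In the sugar list 1 of 14 rose, none fell and 13 did not pass, with a median of 0.03. Over all tested genes 3.78% passed. The sugar transporter gene SWEET29 rose, at 44.82 to 65.42 FPKM in HN44 and 18.52 to 23.44 FPKM in SN14, and did not pass without HN44-3 (limma adjusted p = 0.139). SWEET30 stood at 0.21 to 0.27 FPKM in HN44 and 1.04 to 4.01 FPKM in SN14 (limma adjusted p = 0.0616). It passed the filter for testing through its SN14 values alone. SWEET42 stood at 6.1 to 8.41 FPKM in HN44 and 15.25 to 40.99 FPKM in SN14 (limma adjusted p = 0.0506). Of 4 protease inhibitor genes tested, R1 rose and 3 did not pass, beside 3.78% of all tested genes that passed. R1 stood at 56.85 to 79.7 FPKM in HN44 and 5.38 to 9.17 FPKM in SN14. The Kunitz trypsin inhibitor gene KTI-2 stood at 5 to 8.4 FPKM in HN44 and 11.81 to 19.18 FPKM in SN14. Its relative KTI-3 stood at 34.02 to 38.27 FPKM in HN44 and 38.3 to 58.42 FPKM in SN14. The limma adjusted p of R1 was 0.00127, and without HN44-3 it was 0.0154 on the same genes and 0.052 with the filter applied again. The vacuolar processing protease gene VPE2, the single gene tested of its list, rose and was at 342.54, 80.68 and 229.47 FPKM in HN44 libraries 1, 2 and 3, against 17.43 to 25.74 FPKM in SN14 (limma adjusted p = 0.0269, and 0.143 without HN44-3). Within HN44 it was highest where VSPA was lowest, in HN44-1, and lowest where VSPA was highest, in HN44-2. As HN44-3 adds little, this rests on HN44-1 and HN44-2 alone, and a link with VSPA was not tested.

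The genes with the most similar profiles were found by the root mean square difference between log2(FPKM + 1) profiles over the 6 libraries, each centred on its own mean, among the 15789 other tested genes averaging 5 FPKM or more. The measure is a description of these libraries; it rests on the genotype difference that chose the members, and the 6 libraries include HN44-3. VSPB was the gene placed 4 for likeness to VSPA, at a distance of 1.32, where the median gene lay at 3.38. Seen from VSPB, VSPA was placed 40. The nearest gene to VSPA was LOC732576, at a distance of 1.04, which was also the second nearest to VSPB at 0.49 and the only gene among the 8 nearest of both. LOC732576 on chromosome 2 stood at 0.16, 4.11 and 1.13 FPKM in HN44 libraries 1, 2 and 3, against 46.04, 122.67 and 29.48 FPKM in SN14 libraries 1, 2 and 3, with the same order of libraries as VSPA within each genotype.

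After LOC732576 the nearest to VSPA were LOC100500579, at 5.3 to 143.7 FPKM in HN44 and 638.9 to 872.2 FPKM in SN14, and the GASA peptide gene GASA3, at 1.2 to 53.38 FPKM in HN44 and 131.8 to 595.83 FPKM in SN14. LOC100810979, BGI_novel_G001836, LOC100803792 and EXP5A followed, at distances of 1.44 to 1.53. Each of the 8, chosen for likeness to VSPA, had its lowest value in HN44-1 and its highest HN44 value in HN44-2. The nearest to VSPB was AMT1.5, at a distance of 0.39. Within HN44, however, AMT1.5 was highest in HN44-1, the library in which VSPB was lowest. LOC100799833, LOC100809999, BGI_novel_G002021, BGI_novel_G002407, LOC100803418 and BGI_novel_G000440 followed at 0.67 to 0.88, all at or below 1.39 FPKM in HN44 and between 8.82 and 131.36 FPKM in SN14. Without HN44-3, 7 of the 8 nearest to VSPA and all 8 nearest to VSPB stayed among the 8.

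**Figure D4:**
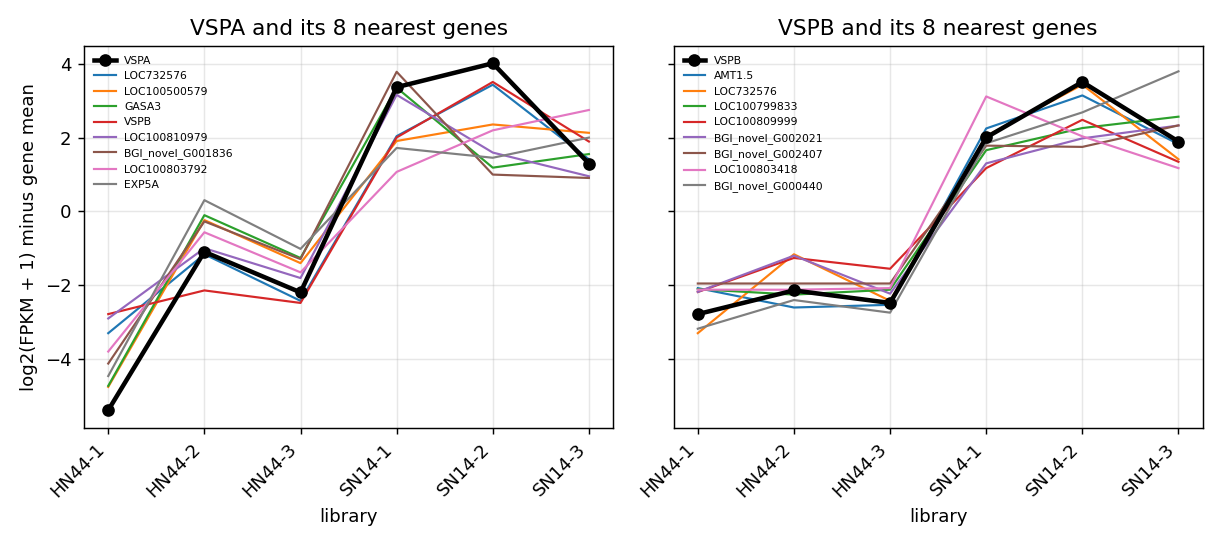
Profiles of VSPA (left) and VSPB (right), in black, and of the 8 nearest genes of each, as log2(FPKM + 1) minus the gene's mean over 6 libraries; lines join the values of a gene and imply no order of libraries. The VSPA group, chosen for likeness to VSPA, dips in HN44-1 and rises in HN44-2. In the VSPB group LOC732576 and LOC100809999 are among those that do so too. LOC732576 is at 0.16 FPKM in HN44-1 and 4.11 FPKM in HN44-2.

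VSPA and VSPB lie on different chromosomes in similar surroundings. In the authors' table the gene after VSPA, LOC100778379, begins 6138 bases beyond it, and the gene after VSPB, LOC547669, 2701 bases beyond it, both on the plus strand. The second gene after each member carries an IQD name, IQD22 beside VSPA and IQD29 beside VSPB, both on the minus strand. The neighbours did not share the size of the members' difference, and none of those tested passed in limma. LOC100778379 stood at 16.08, 22.35 and 15.63 FPKM in HN44 libraries 1, 2 and 3, against 29.55, 73.95 and 71.72 FPKM in SN14 libraries 1, 2 and 3. LOC547669 stood at 96.34, 140.46 and 114.4 FPKM in HN44 libraries 1, 2 and 3, against 174.34, 448.85 and 446.91 FPKM in SN14 libraries 1, 2 and 3.

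The pair LOC100778379 and LOC547669 thus had every HN44 library below every SN14 library. So did LOC100810990 and 10.5% of all tested genes. The log2 differences of the pair were -1.55 ± 0.37 and -1.49 ± 0.39 (SE). The limma adjusted p of the pair was 0.0688 and 0.08, or 0.281 and 0.294 without HN44-3. Unlike VSPA, both were about as high in SN14-3 as in SN14-2. IQD22 and IQD29 were at most 0.04 FPKM in HN44 and at most 0.78 FPKM in SN14 and were not tested. The gene before VSPA, LOC100810990, stood at 18.2 to 20.13 FPKM in HN44 and 20.21 to 24.51 FPKM in SN14, and the gene before VSPB, LOC100795218, was at most 0.06 FPKM in HN44 and 0.13 FPKM in SN14. LOC100815273, the third gene before VSPA, at 6.89, 40.6 and 22.01 FPKM in HN44 libraries 1, 2 and 3, against 87.82, 33.12 and 10.84 FPKM in SN14 libraries 1, 2 and 3, had overlapping groups. The remaining 5 neighbours had log2 differences between -0.31 and 0.65.

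**Figure D5:**
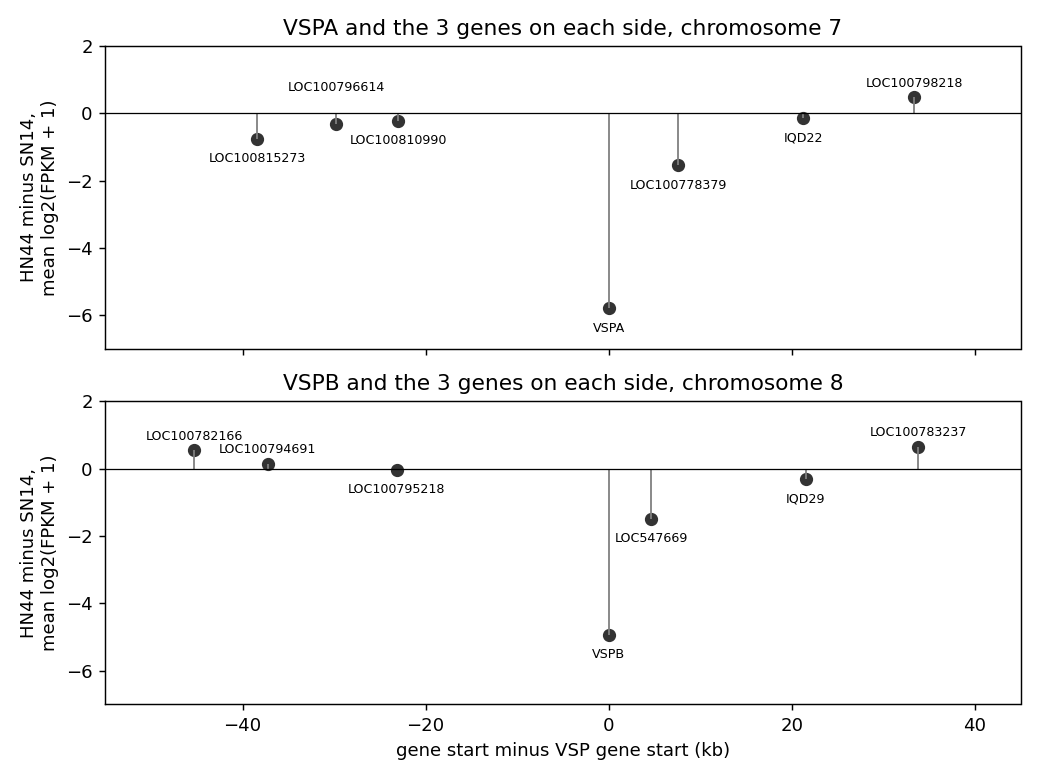
Difference in mean log2(FPKM + 1), HN44 minus SN14, of VSPA (top) and VSPB (bottom) and the 3 genes on each side, by the distance of the gene's start from the start of the VSP gene in kilobases. The members stand at -5.79 and -4.94, the gene after each at -1.55 and -1.49, and the other neighbours between -0.75 and 0.65.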

How the data were processed

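FPKM per gene for the 6 libraries was deposited by the authors in 1 table with gene positions, per the file headers. HISAT2 2.0.4, RSEM 1.2.12, DESeq2 1.4.5 and Bowtie2 2.2.5 are listed, with no role for each, per the submitters' processing notes. Read totals were not used here, so the depth behind a value is unknown; low values (0.1 to 0.6 FPKM) had most frequent log2 ratios between libraries of -0.15 to 0.05. Symbols, synonyms and chromosome numbers were matched by NCBI gene number, for 37544 of 38907 numbers, to RefSeq genes of Glycine_max_v4.0, without its coordinates.

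log2(FPKM + 1) was tested in limma 3.58.1 (R 4.3.3, variance trend, no covariate) for genes reaching 1 FPKM in 3 or more libraries, and the procedure was tested on simulated data. Differences are HN44 minus SN14. The p-values reflect the spread between libraries, which may be technical, and count HN44-3 as a replicate of its own, so they may be too small.

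The members and gene lists were chosen with earlier results of these data known. Lists match symbols or synonyms; matches of another function, such as LOB domain genes among nodule names, were removed by name. The text names every list member past the threshold and the 3 with the smallest p, the 8 genes nearest to each member and 3 neighbours on each side. A planned search for protein relatives was not made. Alternatives were another pseudocount, no filter, other scalings, leaving out each library and a replicate block.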

Additional observations from a re-analysis of the deposited data

How the results depend on the processing

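Every HN44 value of VSPA and VSPB lay below every SN14 value, so leaving out a library could not change the direction. Only the size of the difference could vary. For VSPA the log2 difference ranged from -6.69 (without HN44-2) to -4.54 (without HN44-1) when a library was left out. For VSPB it ranged from -5.23 (without SN14-3) to -4.42 (without SN14-2). With a pseudocount of 0.1 the VSPB difference was -6.71. The difference in log2 ratio of VSPA to VSPB was 0.81 (without SN14-3) to 1.84 (without HN44-1). The lipoxygenase and jasmonate lists held 0 to 1 genes past the threshold in limma when a library was left out, VLXC without SN14-1 (adjusted p = 0.0411) and AOS2 without SN14-2 (adjusted p = 0.0257), against 0 with 6 libraries (5 of 15 at an unadjusted p under 0.05, beside 27.3% of all tested genes). The count over all genes, 1025 with 6 libraries, was 150 to 961 without 1 library: 150 without HN44-3, 276 without HN44-1 and 478 without SN14-3, and 15 without HN44-3 with the filter applied again. Of the calls, 61.8% were higher in HN44 as deposited, 45.5% when libraries were scaled by median ratios and 49.6% when quantiles were equalised. With the replicate number as a block the count was 174. Deviations of same-numbered libraries correlated at -0.22, -0.44 and 0.03. Because HN44-3 lies mostly between HN44-1 and HN44-2, these values cannot settle whether the numbers pair the samples. The ratio was not refitted with another pseudocount or filter, which it does not use. The depth is unknown, so no counting error can be given for VSPB in HN44, where values lie under 1 FPKM.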

Other observations

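The phosphate genes SPX1, SPX3 and SPX8, picked out after their values were seen, come from a family whose transcripts mark phosphate shortage in plants. SPX1 stood at 0.09, 0.44 and 0.08 FPKM in HN44 libraries 1, 2 and 3, against 1.47, 37.66 and 74.4 FPKM in SN14 libraries 1, 2 and 3. SPX8 stood at 23.35, 28.14 and 28.48 FPKM in HN44 libraries 1, 2 and 3, against 29.53, 214.54 and 243.93 FPKM in SN14 libraries 1, 2 and 3. SPX3 stood at 4.49, 10.67 and 6.83 FPKM in HN44 libraries 1, 2 and 3, against 9.28, 48.38 and 67.94 FPKM in SN14 libraries 1, 2 and 3. All 3 were far lower in SN14-1 than in SN14-2 and SN14-3. Of the 6 SPX genes tested, 5 were lowest in SN14-1 among the SN14 libraries, and 5 were lower and 1, SPX6, higher in HN44 by their means, with log2 differences of -0.40 for SPX2 and 0.54 for SPX6. The order in SN14 is not the order of VSPA, at 1240.33 FPKM in SN14-1 and 294.88 FPKM in SN14-3. None of the 6 passed between the genotypes in limma (adjusted p = 0.0952, 0.129 and 0.14 for SPX1, SPX3 and SPX8). At an unadjusted limma p under 0.05 were 4 of them, beside 27.3% of all tested genes. SPX1 passed the filter for testing through its SN14 values alone.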
